A study of Mus musculus with 36 samples.

Results

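The 10 genes described here encode the integrin subunits that T cells use most: Itgal and Itgb2, Itga4, Itgb1 and Itgb7, Itga1, Itga2 and Itga6, and Itgav and Itgb3. They were chosen by gene name from the 56748 genes of the count table, and all 10 were found in it. RNA-seq gave their transcript levels in CD4+ T cells from the HP1a and HP1g mutant lines, as 12 groups with 3 libraries each. One HP1g KO library of Tconv with Treg, replicate 3, is not used here, as the study did not use it for its GC content, its share of exonic reads and its coverage bias, which leaves 35 libraries and 2 in that group.

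In the HP1a line the floxed gene of HP1α, Cbx5, had been excised with CMV-cre, which acts in the whole animal, and HP1a KO (-/-) mice were set against HP1a WT (+/+) littermates. In the HP1g line the floxed gene of HP1γ, Cbx3, was excised by Cd4-cre, thus in T cells, and HP1g WT mice were littermates with the floxed allele and no Cre. The mice were males of 6 to 12 weeks, on a mixed background. Each line and genotype gave 3 kinds of cells, all from the spleen. Naive cells were CD4+ CD62L+ CD44-/low T cells taken from the mice by negative selection. Tconv were such cells recovered 3 weeks after transfer into lethally irradiated C57BL/6 hosts that had also received bone marrow of B6 and of semi-allogeneic B6D2F1 mice, sorted as Vβ6+ cells of donor origin. Tconv with Treg came from hosts that had in addition been given wild-type regulatory T cells (Treg) carrying Foxp3-Thy1.1 and expanded ex vivo. The sort took cells without Thy1.1, and none of the Treg were mutant. Grafted cells thus differ from naive cells in the Vβ6 sort, the host, the irradiation and the allogeneic response at once, and these cannot be told apart. In bulk libraries, fewer cells of a type and less RNA per cell cannot be told apart either. The labels name the libraries of a group as separate samples and do not say whether each came from its own animal, so that the p-values measure the spread between these samples.

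Integrins are heterodimers of 1 α and 1 β chain that span the membrane and bind matrix proteins or ligands on other cells. An inactive, bent receptor opens after signals from the T cell receptor or from chemokine receptors (inside-out signalling), and the bound receptor then signals through kinases and the actin cytoskeleton (outside-in signalling). Because an α chain can reach the surface only with a fitting β chain, the balance of the β chains bears on which receptors a cell can build: β2 pairs with αL (LFA-1, the ICAM receptor of the immunological synapse), β1 with α1 and α2 (collagen), α4 (VCAM-1 and fibronectin) and α6 (laminin), β7 with α4 (MAdCAM-1 of gut vessels), and β3 with αv (vitronectin and osteopontin).

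The 35 libraries held 37029519 to 63042245 estimated counts (median 46844690), and 20158 to 23340 genes had counts in each. At this depth 3 counts correspond to 0.0446 to 0.0816 CPM, the unit of level used here (counts relative to the TMM-scaled library size). The targeted genes were lower in KO cells in each condition, without overlap between the libraries. Cbx5 lay between 18.6 and 61.9 CPM in the 9 HP1a WT libraries and between 9.25 and 19.7 CPM in the 9 HP1a KO libraries, and Cbx3 between 79.5 and 200.1 CPM in the 9 HP1g WT libraries and between 59.4 and 80.8 CPM in the 8 HP1g KO libraries, so transcripts of both genes were still counted in KO cells. At the protein level, the study's western blots of naive KO cells showed HP1α to be absent and HP1γ to be almost completely lost. T cell markers were present in all groups (10 of 10 listed genes at a mean above 1 CPM, 7582 to 13083 CPM in sum). The 5 listed markers of activated T cells summed to 45.2 to 79.8 CPM in naive and to 729 to 1817 CPM in grafted libraries. The 10 listed markers of platelets, which carry α2 and β3 integrins, summed to no more than 6.58 CPM in any library.

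The members lie on 7 chromosomes (GRCm39). Itga2 (chr13:114969617-115068636) and Itga1 (chr13:115089632-115238677) are neighbours on the minus strand of chromosome 13, and Itga6 (chr2:71575960-71689757), Itga4 (chr2:79085660-79163467) and Itgav (chr2:83554403-83637260) share chromosome 2, all on the plus strand. Itgal is at chr7:126895432-126934320, Itgb1 at chr8:129411876-129460618, Itgb2 at chr10:77366086-77401542 and Itgb3 at chr11:104498826-104561302, each on the plus strand, and Itgb7 at chr15:102124429-102140379 on the minus strand. The library kit does not mark strand, so reads of sequence shared by overlapping genes cannot be told apart by strand. Itga1 shares its locus with Pelo on the same strand and with Mocs2 on the opposite one, and Mocs2 overlaps Itga2 as well. Pelo had 4.2 to 7.15 CPM in naive cells and 5.62 to 8.86 CPM in Tconv. Mocs2 had 30.4 to 54.1 CPM in naive cells, 30.6 to 44.0 CPM in Tconv and 32.1 to 50.2 CPM in Tconv with Treg. These ranges overlap each other, and Mocs2 was above Itga2 in naive cells. The lower values of Itga2 and Itga1 are thus uncertain to the extent that reads were shared. For Itga1 that extent was small in naive cells, where it had 15 counts in all 12 libraries together and Pelo and Mocs2 were present in each. Cerkl overlaps Itga4 on the opposite strand and was higher in grafted cells too, with 7.06 to 14.3 CPM in naive cells and 19.2 to 35.8 CPM in Tconv, so the values of Itga4 are uncertain to that extent.

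The bases upstream of the start are shown for Itga1, Itga2 and Itgb7, members that were called with Treg in HP1a WT cells, and for Itga4, the member whose window held motif matches. Itgb1, which changed more on grafting than Itgb7, is not shown, because its window lies within annotated exon. The sequences are from RefSeq (table of build GRCm38.p6, which holds 6 of the 10 members, without Itgal, Itgb2, Itga6 and Itgb3), and were placed on GRCm39 by exact match. Of the 250 bases before each RefSeq start, the bases outside annotated exons are given, 5′ to 3′ on the strand of the gene, with motif matches in capitals. They are chr13:115238678-115238750 for Itga1 (73 bases), chr13:115068637-115068886 for Itga2 (250 bases), chr15:102140380-102140620 for Itgb7 (241 bases), all 3 on the minus strand, and chr2:79085520-79085659 for Itga4 (140 bases, plus strand).
Itga1: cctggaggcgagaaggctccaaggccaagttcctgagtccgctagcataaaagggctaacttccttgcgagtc
Itga2: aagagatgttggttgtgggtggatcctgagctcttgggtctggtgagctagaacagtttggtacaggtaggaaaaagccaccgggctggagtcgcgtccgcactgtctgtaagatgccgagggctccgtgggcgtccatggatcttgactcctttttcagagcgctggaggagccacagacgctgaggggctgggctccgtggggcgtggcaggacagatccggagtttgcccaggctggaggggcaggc
Itgb7: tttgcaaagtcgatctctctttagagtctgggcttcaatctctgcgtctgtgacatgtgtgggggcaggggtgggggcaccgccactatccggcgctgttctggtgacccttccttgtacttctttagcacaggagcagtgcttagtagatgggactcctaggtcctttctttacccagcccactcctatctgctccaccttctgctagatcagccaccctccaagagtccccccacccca
Itga4: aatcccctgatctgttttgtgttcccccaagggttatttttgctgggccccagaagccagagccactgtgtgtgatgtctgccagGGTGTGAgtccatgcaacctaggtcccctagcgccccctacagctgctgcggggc
Letters of 4 motifs of factors known in effector T cells were searched on both strands of the 250-base windows. The T-box letters TCACACC, which T-bet and Eomes bind, occurred in Itga4 on the opposite strand, read as GGTGTGA on the strand shown, 165 to 159 bases before the RefSeq start, and in 3.33% of all 32851 windows. The RUNX letters TGTGGT occurred in Itga4 as well, within its annotated exon and thus not in the sequence shown, and in 14% of all windows. The AP-1 letters TGANTCA (6.75% of windows) and the ETS letters CCGGAAG (6.91% of windows) were in none of the 6 members. The motifs overlap no other match in these members. A match of letters is a description and not a binding site.

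The level of each subunit was first compared within groups, as CPM per kilobase of annotated exon. Itgb7 was the most abundant subunit in 11 of the 12 groups, with 328 ± 16.6 CPM per kilobase in naive HP1a WT cells (SD, n = 3) and 771 ± 111 CPM per kilobase in HP1a WT Tconv, and Itgb2 came first in HP1g KO Tconv with Treg, where its range overlapped that of Itgb7. In naive HP1a WT cells the order was Itgb7, Itgb2, Itgal, Itgb3, Itga6, Itgb1, Itga4, Itgav, Itga2 and Itga1, and of the neighbours in it Itgb3 and Itga6, and Itgb1 and Itga4, overlapped in range. Itgb1 moved from the 6th place in naive cells, with 10.1 ± 0.960 CPM per kilobase in HP1a WT, to the 3rd place in HP1a WT Tconv, with 265 ± 57.3 CPM per kilobase, where its range overlapped that of Itgb2. Itga1 was last in naive cells of both lines and genotypes. With the longest transcript in place of all exons the naive HP1a WT order of Itgb3 and Itga6, and of Itgb1 and Itga4, turned round, so only the larger steps in these orders do not depend on the length used.

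**Figure D1:**
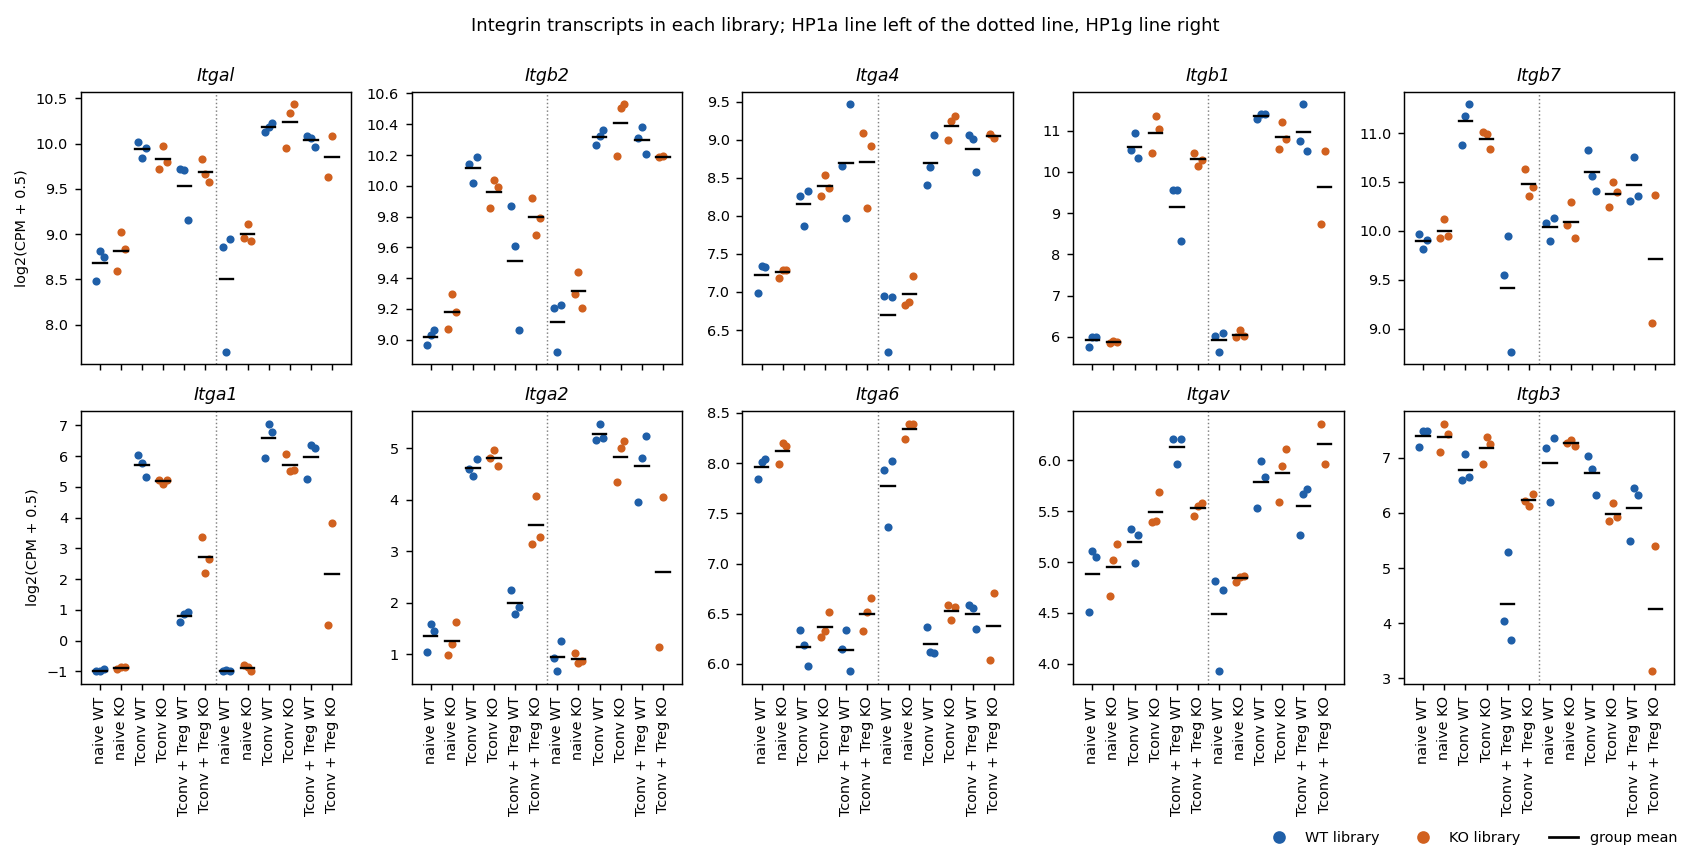
Level of each of the 10 subunits in every library, as log2 of CPM plus 0.5, by group; points are libraries and bars are means of these log2 values. Itgb1, Itga1 and Itga2 lay higher in every grafted Tconv library than in any naive library, Itga6 lay lower, and Itga1 and Itga2 had their lowest grafted levels in HP1a WT Tconv with Treg and in 1 library of HP1g KO Tconv with Treg.

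To see how the integrins differ between grafted and naive cells, Tconv without Treg were compared with naive cells within each line and genotype. Calls needed an adjusted p under 0.05 (edgeR's quasi-likelihood test) together with a log2 fold change above 1 in size. Of the 10 members 6 were called higher and 1 lower in HP1a WT, 5 and 1 in HP1a KO, 7 and 1 in HP1g WT and 7 and 2 in HP1g KO. Among all genes, 12.9% were called higher and 10.2% lower in HP1a WT, 12.4% and 7.24% in HP1a KO, 15% and 8.55% in HP1g WT, and 15.7% and 7.3% in HP1g KO. The groups did not overlap for 9 members in each of the 4 comparisons, where this held for 57.8%, 54.9%, 52% and 53.6% of all genes. The median log2 fold change of the members was 1.17, 0.99, 1.43 and 1.20, against −0.04, −0.01, −0.03 and 0.02 over all genes tested.

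Itgb1, the common partner of the collagen, laminin and fibronectin receptors, had the largest rise of the abundant members. Its level was 53.4, 63.1 and 63.6 CPM in the 3 naive HP1a WT libraries and 1480, 1961 and 1298 CPM in HP1a WT Tconv. It was 64.2, 49.3 and 67.8 CPM in naive HP1g WT cells and 2468, 2697 and 2689 CPM in HP1g WT Tconv. All 12 naive libraries lay between 49.3 and 71.1 CPM and all 12 Tconv libraries between 1298 and 2697 CPM, a gap many times the spread within either. The log2 fold change was 4.73 ± 0.18 (SE) in HP1a WT, 5.15 ± 0.25 in HP1a KO, 5.44 ± 0.22 in HP1g WT and 4.86 ± 0.20 in HP1g KO, with adjusted p-values of 5.93e-07, 1.46e-05, 3.76e-06 and 8.64e-07 (edgeR's quasi-likelihood test, Benjamini-Hochberg adjustment).

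The 2 collagen-binding α chains among the members rose with it. Itga1, which forms VLA-1 and is known from tissue-resident memory T cells, had 15 counts in all 12 naive libraries together, and 5 of these libraries had 0. It reached 65.6, 54.6 and 39.5 CPM in HP1a WT Tconv, 37.3, 33.5 and 37.3 CPM in HP1a KO Tconv, 61.4, 132.8 and 109 CPM in HP1g WT Tconv and 67.0, 45.8 and 46.6 CPM in HP1g KO Tconv. Every Tconv library therefore carried Itga1 transcripts, which were at or near 0 in every naive one. With 2 counts in naive HP1a WT and 1 count in naive HP1g WT cells, the ratios of Tconv to naive, 4693 and 12611, carried 95% intervals of 1299 to 38759 and of 2263 to 498137 (exact binomial, counting error only). Itga2, the α chain of VLA-2, had 1.57, 2.50 and 2.23 CPM in naive HP1a WT cells and 23.9, 21.7 and 27.3 CPM in HP1a WT Tconv, and rose in all 4 comparisons, by 3.54 to 4.72 on the log2 scale (adjusted p from 4.71e-06 to 3.35e-05, edgeR's quasi-likelihood test).

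Itga6, the laminin-binding α chain, went the other way. It had 229, 257 and 262 CPM in naive HP1a WT cells and 80.3, 72.5 and 62.5 CPM in HP1a WT Tconv. Over all lines and genotypes the naive libraries lay between 164.4 and 335.8 CPM and the Tconv libraries between 62.5 and 95.9 CPM, without overlap. Itga6 was the 1 member called lower in all 4 comparisons, with log2 fold changes of −1.79 ± 0.11, −1.74 ± 0.09, −1.61 ± 0.21 and −1.79 ± 0.10 in HP1a WT, HP1a KO, HP1g WT and HP1g KO.

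Itga4, the α chain shared by β1 and β7, had 126, 162 and 160 CPM in naive and 307, 233 and 321 CPM in HP1a WT Tconv. In the HP1g line it went from 123, 73.7 and 121 CPM in naive WT cells to 338, 398 and 532 CPM in WT Tconv. Tconv lay above naive cells in every library of both lines. The log2 fold change was 0.95 ± 0.15 in HP1a WT, under the fold threshold (adjusted p 0.00109 by edgeR's quasi-likelihood test), and 1.15 ± 0.09, 1.99 ± 0.26 and 2.23 ± 0.15 in HP1a KO, HP1g WT and HP1g KO, where it was called. Without replicate 2 of naive HP1a WT cells or of HP1a WT Tconv it passed the threshold in HP1a WT as well.

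Itgb7, the partner of α4 in the gut-homing receptor and of αE, had 998, 902 and 958 CPM in naive HP1a WT cells and 1886, 2316 and 2515 CPM in HP1a WT Tconv. In the HP1g line it had 1081, 951 and 1123 CPM in naive WT cells and 1818, 1508 and 1361 CPM in WT Tconv. The Tconv libraries were higher in both lines, but in HP1g KO Tconv, with 1211, 1449 and 1350 CPM, the lowest library was below the highest naive one. The log2 fold change was 1.24 ± 0.12 in HP1a WT, which was called, 0.96 ± 0.08 in HP1a KO, 0.57 ± 0.18 in HP1g WT and 0.31 ± 0.13 in HP1g KO, with adjusted p-values of 8.69e-05, 0.000153, 0.0430 and 0.0912 (edgeR's quasi-likelihood test). Without replicate 3 of HP1a KO Tconv it was called in HP1a KO too.

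The chains of LFA-1 were higher in Tconv too. Itgal, its α chain, had 357, 448 and 430 CPM in naive HP1a WT cells and 1035, 918 and 992 CPM in HP1a WT Tconv. Itgb2, its β chain, had 499.6, 523 and 534 CPM in the same naive cells and 1130, 1035 and 1167 CPM in Tconv. Both were higher in all Tconv libraries than in any naive library. The log2 fold changes of Itgal were between 1.02 and 1.58 and were called in all 4 comparisons, and those of Itgb2 were between 0.80 and 1.19 and were called in all but HP1a KO. The call of Itgal in HP1a KO was lost without replicate 1 of the naive cells or replicate 2 of Tconv. Replicate 2 of naive HP1g WT cells stood apart, with 207 CPM of Itgal against 462 and 493 CPM in the other libraries of its group. It was low in Itga4 and Itgav too, in Itgb3 (73.2 against 144 and 164 CPM) and in Itga6 (164 against 244 and 260 CPM). Over all genes its counts differed more from the other libraries than those did from each other (chi-square per gene 295.9 and 276.9 against 11.92).

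The αv and β3 chains form the vitronectin receptor, and their log2 fold changes had opposite signs in all 4 comparisons, with both called in HP1g KO alone. Itgav had 27.7, 14.7 and 26.0 CPM in naive HP1g WT cells and 45.6, 63.3 and 56.5 CPM in HP1g WT Tconv. Its log2 fold change was 1.28 ± 0.26 in HP1g WT and 1.09 ± 0.14 in HP1g KO, both called, and 0.56 ± 0.15 in HP1a KO and 0.30 ± 0.17 in HP1a WT, which were not, and the call in HP1g KO was lost without replicate 3 of Tconv. Itgb3 had 154, 161 and 149 CPM in naive HP1g KO cells and 57.3, 72.3 and 60.4 CPM in HP1g KO Tconv, where it was called lower (log2 fold change −1.26 ± 0.11). In the other 3 comparisons its log2 fold change was −0.60 ± 0.14 in HP1a WT, −0.20 ± 0.16 in HP1a KO and −0.25 ± 0.31 in HP1g WT, and it was not called. Whether the size of these differences depends on genotype was tested by an interaction in each line, and by edgeR 0 of 10 members were called in either line, with 2 members at an unadjusted p under 0.05 in each and 0 called by DESeq2. Of all genes, edgeR called 0.00587% in the HP1a and 0.0235% in the HP1g line, and 4.89% and 7.89% were at an unadjusted p under 0.05. The share called by DESeq2 in these interactions is not given.

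**Figure D2:**
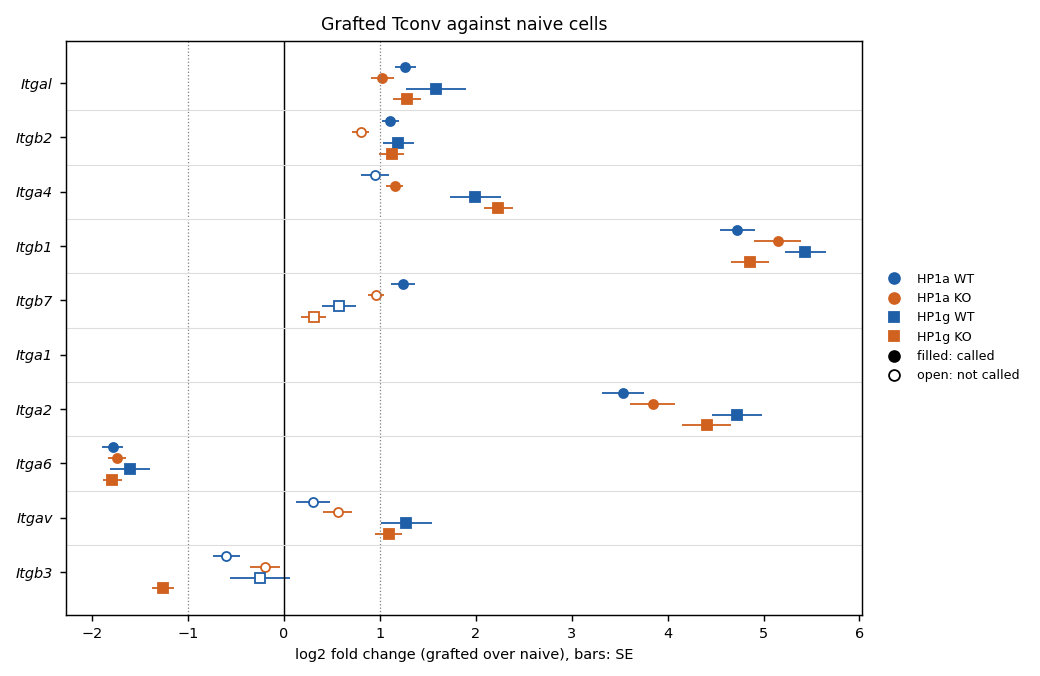
Log2 fold change of grafted Tconv over naive cells for 9 members in the 4 combinations of line and genotype, with bars of 1 SE; dotted lines mark a fold change of 1 on the log2 scale in either direction. Itgb1 lies between 4.73 and 5.44 and Itga2 between 3.54 and 4.72, Itga6 between −1.79 and −1.61, and Itga1 is left out because it was at or near 0 in naive cells.

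The shift between the β chains was followed as the ratio of their levels per kilobase in each library. The ratio of Itgb1 to Itgb7 was 0.0252 to 0.0340 in the 12 naive libraries, so Itgb7 was in large excess before grafting. In Tconv it was 0.382, 0.412 and 0.251 in HP1a WT, 0.330, 0.628 and 0.563 in HP1a KO, 0.660, 0.869 and 0.960 in HP1g WT and 0.601, 0.792 and 0.644 in HP1g KO. The Tconv ratios were thus all above the naive ones and below 1. With Treg the group means were 0.407 ± 0.0726, 0.428 ± 0.00985, 0.697 ± 0.182 and 0.461 ± 0.105 in the same order (SD, n = 3, and n = 2 in HP1g KO), and their ranges overlapped those of Tconv in the HP1a line and in HP1g WT but not in HP1g KO. The ratio of Itgal to Itgb2 stayed in a narrow band, with means of 0.334 to 0.50 over the 12 groups. The lowest mean was that of naive HP1g WT cells, where replicate 2 had 0.211 against 0.386 and 0.406 in the other libraries. The ratio of Itgav to Itgb3 had means of 0.0936 to 0.0986 in naive cells and of 0.168 to 0.503 in Tconv. It reached 2.47, 0.859 and 3.19 in HP1a WT Tconv with Treg against 0.312, 0.358 and 0.318 in HP1a KO, without overlap, and 5.34 and 0.799 in the 2 libraries of HP1g KO.

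**Figure D3:**
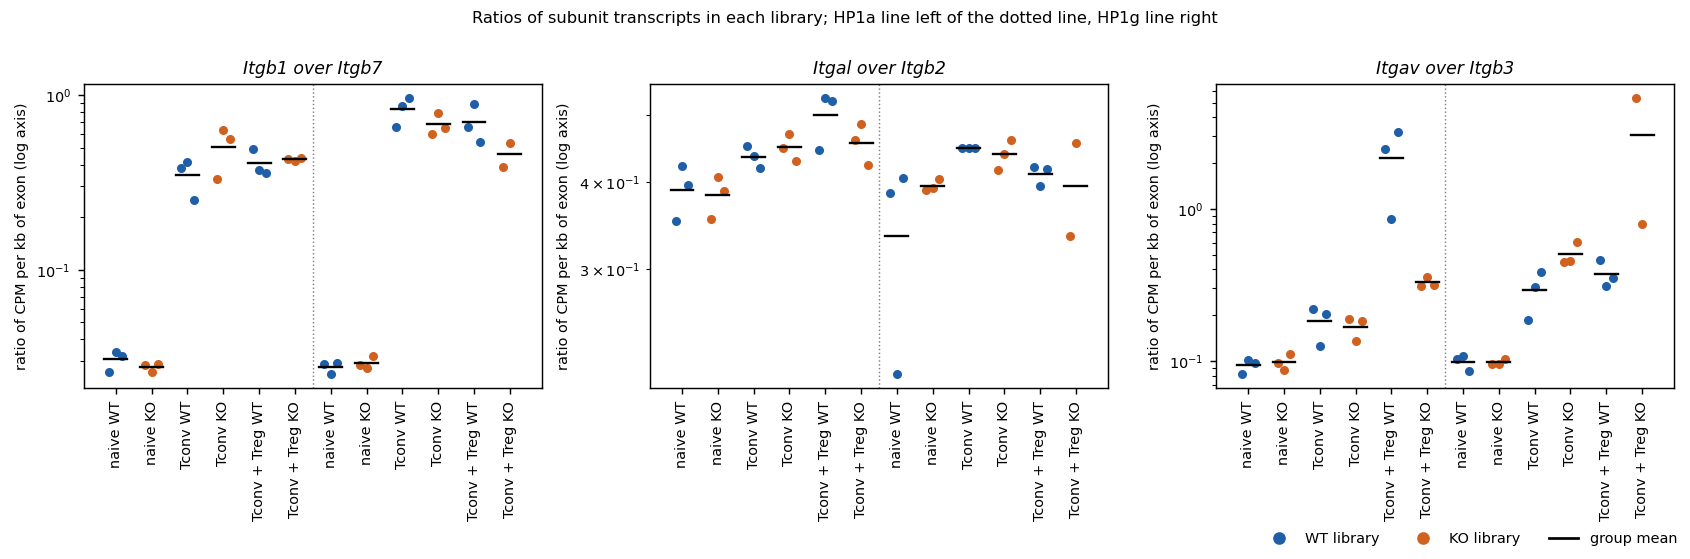
Ratio of subunit levels per kilobase in every library on a log axis, for Itgb1 over Itgb7, Itgal over Itgb2 and Itgav over Itgb3, by group; points are libraries and bars are group means. The Itgb1 to Itgb7 ratio is at most 0.0340 in naive cells and between 0.251 and 0.960 in Tconv, while the Itgal to Itgb2 means stay between 0.334 and 0.50.

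The effect of Treg was measured within each line and genotype, as Tconv with Treg against Tconv. In HP1a WT cells 4 of the 10 members were called lower and 0 higher, where 2.43% of all genes were called lower and 3.54% higher. The groups did not overlap for 8 members, 7 of them lower, where this held for 34.4% of all genes. The median log2 fold change was −0.96 for the members and 0.03 over all genes tested.

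Itga1 fell most. It went from 65.6, 54.6 and 39.5 CPM in HP1a WT Tconv to 1.02, 1.31 and 1.43 CPM with Treg, a log2 fold change of −5.39 ± 0.28 (adjusted p 0.000309, edgeR's quasi-likelihood test). Every library with Treg was more than an order of magnitude below every library without. Itga2, which encodes the other collagen-binding α chain among the members, fell from 23.9, 21.7 and 27.3 CPM to 4.28, 2.96 and 3.30 CPM, by 2.77 ± 0.23 on the log2 scale (adjusted p 0.00122). Both remained above the highest naive libraries, which had 0.0715 CPM of Itga1 and 2.57 CPM of Itga2.

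Itgb7 went from 1886, 2316 and 2515 CPM to 747, 988 and 434 CPM with Treg, and so to the range of naive cells or below it (log2 fold change −1.62 ± 0.29, adjusted p 0.0181). Itgb3 went from 96.7, 134 and 99.6 CPM to 16.0, 38.7 and 12.4 CPM (−2.29 ± 0.42, adjusted p 0.0193). Itgb3 was thus lower with Treg than in any naive library, of which the lowest had 73.2 CPM. The calls of Itgb7 and Itgb3 were lost when replicate 1, 2 or 3 of HP1a WT Tconv or replicate 1 of HP1a WT Tconv with Treg was left out, while the calls of Itga1 and Itga2 were kept in all 6 such fits. Itgb1 was called without replicate 3 and Itgav without replicate 2 of HP1a WT Tconv with Treg.

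The other 6 members were not called. Itgb1 went from 1480, 1961 and 1298 CPM to 753, 754 and 321 CPM, without overlap, and missed the threshold (log2 fold change −1.36 ± 0.33, adjusted p 0.0526 by edgeR's quasi-likelihood test), though DESeq2 called it (adjusted p 0.00111, with 0.00111 to 0.188 over all alternatives). DESeq2 called 5 members and 9.26% of all genes here, and edgeR with the replicate number as a block 5 members and 5% of all genes, Itgb1 being the added one in both. Itgav went from 39.6, 31.2 and 38.0 CPM to 73.7, 61.9 and 73.5 CPM and was the 1 member higher with Treg in every library (log2 fold change 0.96 ± 0.16, adjusted p 0.0137, under the fold threshold). Itgal and Itgb2 were lower without overlap, by 0.37 ± 0.18 and 0.55 ± 0.21 on the log2 scale, but not called, Itga4 had 403, 250 and 707 CPM with Treg and overlapped, and Itga6 differed by −0.01 ± 0.16.

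In HP1a KO cells Itga1 alone was called, where 0.26% of all genes were called lower. It fell from 37.3, 33.5 and 37.3 CPM to 9.84, 4.08 and 5.73 CPM with Treg (log2 fold change −2.45 ± 0.31, adjusted p 0.032, edgeR's quasi-likelihood test), and the call was lost when any 1 of the 3 Tconv libraries or replicate 3 of Tconv with Treg was left out. Itga2 went from 27.7, 30.8 and 24.7 CPM to 8.31, 16.5 and 9.26 CPM, without overlap (−1.28 ± 0.27, adjusted p 0.0922), and was called without replicate 2 of Tconv with Treg. Itgb3 went from 119, 165 and 151 CPM to 74.3, 69.6 and 80.2 CPM (−0.94 ± 0.13, adjusted p 0.0346, under the fold threshold, but past it without replicate 1 of Tconv), and Itgb7 from 2064, 2028 and 1825 CPM to 1588, 1310 and 1401 CPM (−0.45 ± 0.10, adjusted p 0.0981). These 4 members were each lower with Treg in every library, where 22.6% of all genes did not overlap in either direction, and DESeq2 called 2 members and 2.5% of all genes.

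In HP1g WT cells 0 of 10 members were called by edgeR or by DESeq2, with 1 at an unadjusted p under 0.05. Of all genes edgeR called 0.0126% and 6.89% were at such a p, while the share called by DESeq2 is not given. Itga1 had 61.4, 132.8 and 109 CPM in Tconv and 37.5, 82.2 and 76.5 CPM with Treg, and Itga2 had 35.2, 44.2 and 36.2 CPM and 15.0, 27.5 and 37.4 CPM, so both overlapped. In HP1g KO cells 0 of 10 members were called by either tool, with 1 at an unadjusted p under 0.05. Of all genes edgeR called 0% and 7.62% were at such a p, and the DESeq2 share is again not given. The 2 libraries with Treg differed from each other, with 0.911 and 13.6 CPM of Itga1, 1.72 and 16.2 CPM of Itga2, 8.21 and 41.7 CPM of Itgb3 and 424 and 1459 CPM of Itgb1 in replicates 1 and 2. All of these were below the lowest HP1g KO Tconv library, which had 45.8 CPM of Itga1, 20.0 CPM of Itga2, 57.3 CPM of Itgb3 and 1497 CPM of Itgb1. With Itgb2 they made 5 members without overlap, all lower with Treg, where 24.3% of all genes did not overlap in either direction. Without replicate 2 of the libraries with Treg, which leaves 1 library assumed to vary like the others, Itga1 and Itgb3 were called (adjusted p 0.0494 for both).

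**Figure D4:**
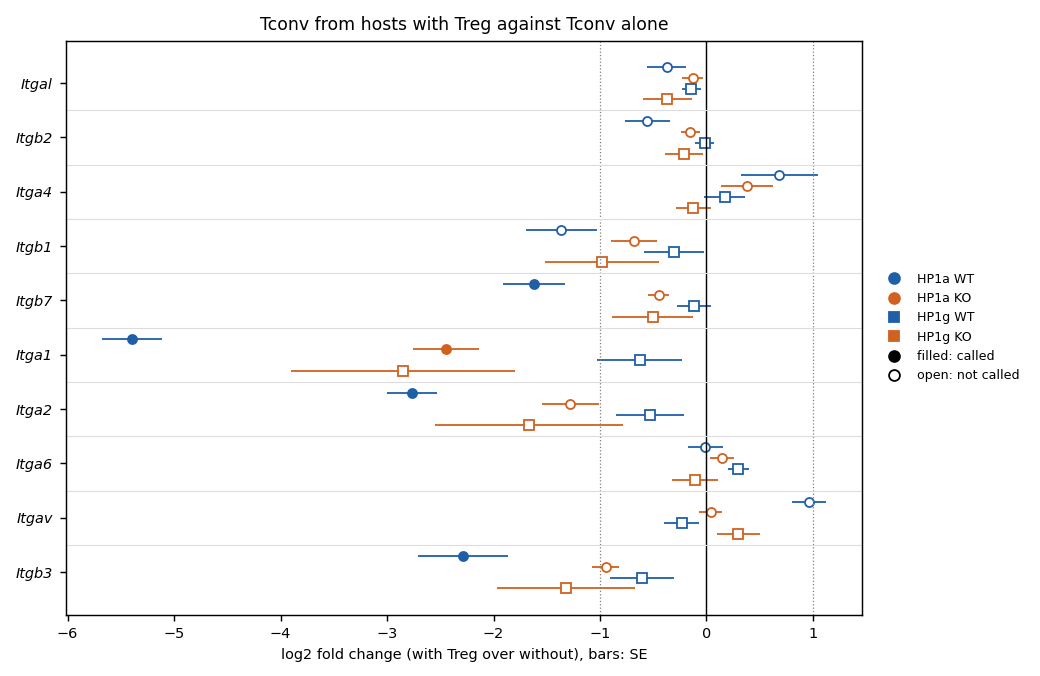
Log2 fold change of Tconv with Treg over Tconv for the 10 members in the 4 combinations of line and genotype, with bars of 1 SE; dotted lines mark a fold change of 1 on the log2 scale in either direction. In HP1a WT cells Itga1 lies at −5.39, Itga2 at −2.77, Itgb3 at −2.29 and Itgb7 at −1.62, in HP1g WT cells all members lie between −0.63 and 0.30, and the bars are widest in HP1g KO, which has 2 libraries with Treg.

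Markers of regulatory T cells and of other cells differed between these groups as well. The study reports that Tconv themselves turned into anergic and Foxp3+ cells with Treg. The markers of regulatory T cells thus cannot tell other cells from a change in the sorted cells. With Treg in HP1a WT 4 of these 10 were called higher, where 3.54% of all genes were. The 10 listed markers of regulatory T cells summed to 747 to 975 CPM in HP1a WT Tconv and to 1263 to 1455 CPM with Treg, against 621 to 949 and 667 to 947 CPM in HP1a KO, and all 10 were detected. Foxp3, the factor that defines Treg, had 4.40 to 12.1 CPM in HP1a WT Tconv and 13.5 to 69.2 CPM with Treg. The 12 listed myeloid markers summed to 7.60 to 9.50 CPM in HP1a WT Tconv and to 29.7 to 67.3 CPM with Treg, and to 14.8 to 200.1 and 179 to 561 CPM in HP1a KO. In the HP1g line the markers of regulatory T cells summed to 526 to 752 CPM in WT Tconv and to 712 to 825 CPM with Treg, and to 597 to 780 and to 965 and 1792 CPM in KO. The listed markers of red cells, which naive cells had at 10.0 to 180 CPM in sum, reached 6118 CPM in grafted HP1g libraries and 771 CPM in grafted HP1a libraries. The part of other cells, or of such a change in the sorted cells, in the results was not tested.

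The KO and WT cells were then compared within each line and condition. By edgeR 0 of the members tested were called in any of the 6 comparisons, where 0%, 0.103% and 0.123% of all genes were called in naive cells, Tconv and Tconv with Treg of the HP1a line and 0.00669%, 0.0437% and 0% in the HP1g line. At an unadjusted p under 0.05 there were 0, 3 and 6 members in the HP1a line, where 1.87%, 8.53% and 12.1% of all genes were, and 1, 5 and 2 in the HP1g line, where 5.78%, 8.42% and 11.8% of all genes were. DESeq2 is the tool that the study used, at the same thresholds. It called 4 members in HP1a Tconv with Treg (713 genes, 3.83% of all genes) and 0 in the other 5 comparisons. Its share of all genes in those 5 is not given here, so its counts of 0 there are not read as a result about the members. In naive cells 9 of the 10 members could be tested, since Itga1 did not pass the filter on low counts. In each line 1 member did not overlap there, Itgb2 in the HP1a line (6.19% of all genes) and Itga6 in the HP1g line (17.4%), both higher in KO.

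The 4 members that DESeq2 called in HP1a Tconv with Treg were those with the largest log2 fold changes by edgeR too. Itga1 had 9.84, 4.08 and 5.73 CPM in KO against 1.02, 1.31 and 1.43 CPM in WT (log2 fold change 2.37 ± 0.45, adjusted p 0.0961 by edgeR's quasi-likelihood test and 1.05e-05 by DESeq2). Itga2 had 8.31, 16.5 and 9.26 CPM against 4.28, 2.96 and 3.30 CPM (1.67 ± 0.37, adjusted p 0.134 and 0.000472). Itgb3 had 74.3, 69.6 and 80.2 CPM against 16.0, 38.7 and 12.4 CPM (1.73 ± 0.40, adjusted p 0.146 and 0.00129). Itgb1 had 1415, 1124 and 1254 CPM against 753, 754 and 321 CPM (1.04 ± 0.32, adjusted p 0.251 and 0.0370). In all 4 the lowest KO library was above the highest WT library, and this held for Itgb7 as well (1588, 1310 and 1401 against 747, 988 and 434 CPM), while Itgav was lower in every KO library (43.3, 46.4 and 47.5 against 73.7, 61.9 and 73.5 CPM). Groups without overlap made up 21.5% of all genes in this comparison. Over all alternatives tried the adjusted p of Itga1 went from 1.05e-05 to 0.421, that of Itga2 from 0.000472 to 0.406, that of Itgb3 from 0.00129 to 0.497 and that of Itgb1 from 0.0291 to 0.654.

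Tconv without Treg differed less between KO and WT. In the HP1a line the log2 fold changes of the members were between −0.56 for Itga1 (37.3, 33.5 and 37.3 CPM in KO against 65.6, 54.6 and 39.5 CPM in WT, without overlap) and 0.40 for Itgb3, and 2 members did not overlap, where this held for 15.1% of all genes. In the HP1g line they were between −0.91 for Itga1, which overlapped, and 0.48 for Itga4. Itgb3 had 57.3, 72.3 and 60.4 CPM in HP1g KO Tconv against 131, 111 and 79.4 CPM in WT, and Itgb1 had 1497, 2362 and 1789 against 2468, 2697 and 2689 CPM. Both were lower in KO without overlap (log2 fold changes −0.74 ± 0.19 and −0.46 ± 0.18), and neither was called (adjusted p 0.302 and 0.536 by edgeR's quasi-likelihood test). In this comparison 4 members did not overlap, as did 13.9% of all genes. In HP1g Tconv with Treg Itga1 had 0.911 and 13.6 CPM in KO against 37.5, 82.2 and 76.5 CPM in WT (−3.15 ± 1.08, adjusted p 0.334), and without KO replicate 2, which leaves 1 KO library that is assumed to vary like the WT ones, it was called (adjusted p 0.0470, the lowest over its alternatives, of which the highest gave 0.928). In that condition 4 members did not overlap, with Itgav higher and Itgb2, Itga1 and Itgb3 lower in KO, where this held for 29.2% of all genes.

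**Figure D5:**
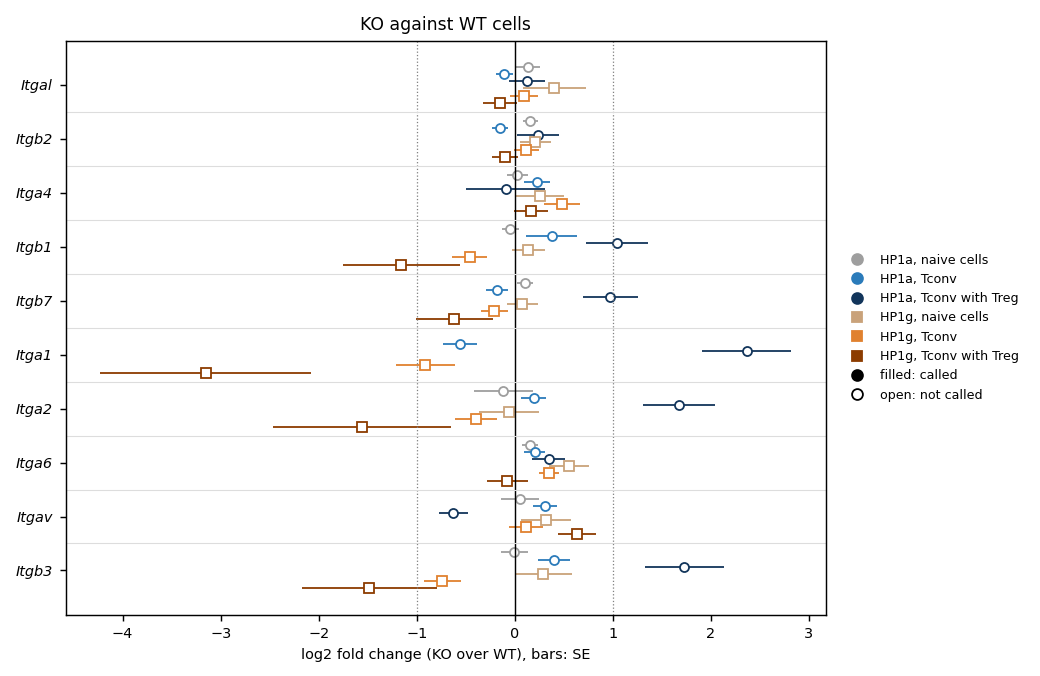
Log2 fold change of KO over WT for the members in naive cells, Tconv and Tconv with Treg of each line, with bars of 1 SE; dotted lines mark a fold change of 1 on the log2 scale in either direction. In HP1a Tconv with Treg Itga1 lies at 2.37, Itgb3 at 1.73 and Itga2 at 1.67, in HP1g Tconv with Treg Itga1 lies at −3.15 with an SE of 1.08, and no member was called by edgeR. DESeq2 called Itga1, Itga2, Itgb3 and Itgb1 in HP1a Tconv with Treg.

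Whether the response to Treg differed was tested by interactions, which use the same libraries as the comparisons above. Between HP1a KO and WT cells Itga1 was called, with a smaller fall in KO (difference of log2 fold changes 2.95 ± 0.42, adjusted p 0.0199, edgeR's quasi-likelihood test), where 0.139% of all genes were called. Leaving out any 1 of 5 libraries of the 12 ended the call, namely KO Tconv replicate 2 or 3, WT Tconv replicate 1 or 2, or WT Tconv with Treg replicate 1, and Itgb3 was called without WT Tconv with Treg replicate 2. Itga2 (1.49 ± 0.35, adjusted p 0.129) and Itgb7 (1.17 ± 0.33, adjusted p 0.212) were called by DESeq2 only, which called 3 members and 1.84% of all genes. Itgav differed by −0.92 ± 0.19 (adjusted p 0.0855). In the HP1g line 0 members were called by edgeR or DESeq2, with 0 at an unadjusted p under 0.05. Of all genes edgeR called 0% and 3.74% were at such a p, while the share called by DESeq2 is not given.

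The WT cells of the 2 lines differed as well. The difference of the Treg effects, HP1g minus HP1a, was 4.78 ± 0.50 for Itga1 (adjusted p 0.00226), 2.25 ± 0.39 for Itga2 (adjusted p 0.0172) and −1.18 ± 0.24 for Itgav (adjusted p 0.0302), and these 3 members were called where 1.56% of all genes were (edgeR's quasi-likelihood test). DESeq2 called 5 members and 4.54% of all genes. Itga1 and Itga2 fell less with Treg in HP1g WT than in HP1a WT cells, and Itgav had a log2 fold change of −0.23 ± 0.16 in HP1g WT against 0.96 ± 0.16 in HP1a WT. The call of Itga2 was lost without replicate 3 of HP1a WT Tconv, replicate 3 of HP1g WT Tconv or replicate 2 of HP1g WT Tconv with Treg. That of Itgav was kept only without replicate 1 of HP1g WT Tconv, replicate 2 or 3 of HP1a WT Tconv with Treg or replicate 3 of HP1g WT Tconv with Treg, while that of Itga1 was kept in all 12. Itgb7 was called without replicate 2 or 3, and Itgb3 without replicate 2, of HP1a WT Tconv with Treg. The WT mice of the 2 lines differ in whether they carry a floxed allele. The study's methods state that Treg were given at various ratios to Tconv. The ratio behind the libraries of each line is not given as a number in the sources used here. Of its HP1g RNA-seq the study states that, at the ratio used, Treg did not effectively repress the response of WT cells. The allele, the ratio of Treg and the line cannot be told apart.

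Genes of the same pathway were read from lists of other subunits, ligands, regulators and partners. With Treg in HP1a WT cells 2 of 10 other subunits tested were called, where 3.54% of all genes were called higher and 2.43% lower. Itgb8, the partner of αv that activates latent TGF-β, rose from 0.170 ± 0.277 to 23.8 ± 4.25 CPM (log2 fold change 7.19, adjusted p 0.00716), and Itgax, the αX chain of dendritic and effector cells, fell from 15.6 ± 2.99 to 2.87 ± 1.71 CPM. Among 10 ligands 1 was called higher and 3 lower. Spp1, which encodes osteopontin, a ligand of αvβ3, rose from 1.76 ± 0.437 to 288 ± 55.3 CPM (log2 fold change 7.36, adjusted p 0.000219), while Cdh1 (E-cadherin, the ligand of αEβ7), Fn1 (fibronectin) and Lamc1 (a laminin chain) fell by 4.95, 3.86 and 1.68 on the log2 scale, Fn1 from a level under 1 CPM. In HP1a KO cells with Treg Spp1 had 4.53 ± 3.07 CPM, lower than in WT by 6.01 on the log2 scale (adjusted p 0.0328).

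Of the partners that sit beside integrins in the membrane, 2 of 10 rose and 2 fell with Treg in HP1a WT cells. Cd81 and Cd9, tetraspanins, rose by 3.07 and 1.70 on the log2 scale, and Cd226, which associates with LFA-1, and Cd47 fell by 2.43 and 1.20. Of 19 inside-out activators tested 0 were called, and of 18 genes of outside-in signalling Zyx (zyxin) alone, which fell by 1.15. With 3.54% of all genes called higher and 2.43% lower, these last 2 counts are near the share over all genes. In HP1a KO, HP1g WT and HP1g KO cells with Treg 0 genes of these 5 lists were called by edgeR. Few genes were called there at all, 0.26% lower in HP1a KO, 0.0126% in either direction in HP1g WT and 0% in HP1g KO.

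Between Tconv and naive cells, where 12.9%, 12.4%, 15% and 15.7% of all genes were called higher and 10.2%, 7.24%, 8.55% and 7.3% lower in HP1a WT, HP1a KO, HP1g WT and HP1g KO, the lists differed in their shares. Of the other subunits 5 rose and 3 fell of 11 tested in HP1a WT, 4 and 1 of 11 in HP1a KO, 5 and 3 of 12 in HP1g WT and 5 and 2 of 12 in HP1g KO. Itgae, the αE partner of β7, Itgad, Itgax and Itgb5 rose in all 4 comparisons, and Itga5, which pairs with β1 as the fibronectin receptor, fell in all 4, by 4.32 to 5.02 on the log2 scale. Of the ligands 8 of 9, 6 of 9, 6 of 9 and 6 of 10 tested rose, Lamc1, Spp1, Cdh1, Vcam1 and Icam1 in each comparison, and 1 fell in HP1g WT (Icam2). Of 19 inside-out genes tested in each comparison 2, 1, 2 and 2 rose, near the share over all genes, so these counts are not read as a result about the list. Among them was Rap1gap2, an inhibitor of Rap1, which rose by 6.29 to 7.46 on the log2 scale. Tagap fell in HP1g KO. Of the genes of outside-in signalling 3 of 16, 3 of 17, 4 of 18 and 2 of 16 rose and 1 fell in each comparison, shares near those over all genes. The 1 that fell was Ptk2, the focal adhesion kinase, by 3.37 to 4.32 on the log2 scale, and Zyx and Vcl, which link integrins to actin, rose in all 4. Of the 10 membrane partners 2, 2, 3 and 2 rose, Cd82 and Cd226 in each, and 2, 1, 3 and 2 fell, Plaur in each. Plaur varied widely in naive cells of the HP1a line, with 23.1 ± 26.9 CPM in WT and 19.6 ± 20.1 CPM in KO. Markers of regulatory T cells, which Tconv can express themselves, and of other cells differed between Tconv and naive cells as well. The markers of regulatory T cells summed to 165 to 252 CPM in naive and to 526 to 975 CPM in Tconv libraries, with 6 of 10 called higher in each comparison and 0, 1, 0 and 3 lower. Of the 5 listed markers of CD8 T and NK cells 2, 3, 3 and 3 were called higher and 1 lower in each, and their sum was 19.02 to 30.4 CPM in naive and 9.04 to 28.7 CPM in Tconv libraries. Myeloid markers were called higher for 1, 7, 7 and 8 of 12 (up to 13.2 CPM in sum in naive cells, 7.60 to 9.50 CPM in HP1a WT Tconv and 14.8 to 327 CPM in the other 3 Tconv groups), and the part of these cells in the results was not tested.

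The genes whose pattern over the 12 group means was most like that of each member were found by Pearson's r of log2 levels among 9333 genes. The nearest was Zfp683 for Itga1 (r = 0.997), which encodes the factor Hobit of resident lymphocytes, followed by Kcnj8 (0.993). Itgb1 was most like Pak6 (0.997) and Il18rap (0.996), Itga2 like AI506816 (0.995) and Edaradd (0.991), Itgal like Fnbp1 (0.994) and Rab8b (0.989), and Itgb2 like Adora2a (0.981) and Bcl2l1 (0.976). Itga4 was most like Pole (0.993) and Ncapg2 (0.990), Itgb7 like Bysl (0.972) and Pmm2 (0.969), Itga6 like Mfhas1 (0.990) and Afap1 (0.989), Itgav like Brca1 (0.974) and Ikzf3 (0.970), and Itgb3 like Dtwd2 (0.979) and Poglut1 (0.975). With 12 points that fall into naive and grafted groups, many genes reach such values, and they are a description.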

How the data were processed

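RNA was read from 36 libraries of CD4+ T cells made with a kit that does not mark strand. The authors ran nf-core/rnaseq 3.9 (Trim Galore 0.6.7 with Cutadapt 3.4, STAR 2.7.10a on GRCm39 with Ensembl annotation 107, Salmon 1.5.2) and deposited estimated counts per gene, of which 82.9% were whole numbers. Here these expected counts were rounded, scaled by TMM and given as CPM. Each comparison was fitted on its own groups with edgeR 4.0.16 (R 4.3.3), by the robust quasi-likelihood test after filterByExpr, with Benjamini-Hochberg adjustment over all genes tested. The threshold for a call was an adjusted p under 0.05 with a log2 fold change above 1 in size. Standard errors of the log2 fold change were derived from the test, as its size divided by the square root of the F statistic. They are thus approximate, above all for changes near 0. The code of the fit was checked on simulated counts with a fixed spread between libraries. This does not show how the fit performs at the spread of the real libraries.

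The 10 members are all named. From each pathway list up to 5 called genes with the largest log2 fold change in size were named per comparison, and the 2 genes most like each member were taken by Pearson's r over the 12 group means among genes averaging 5 CPM or more, without predicted genes, RIKEN clones and receptor segments. The members and lists were chosen with earlier results of these data known.

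Alternatives were DESeq2 1.42.0, RLE scaling, library totals in place of TMM, no filter on low counts, no fold threshold, the replicate number as a block, all libraries of the line in 1 fit, each library left out in turn, the excluded library included, and the longest transcript as length. Of these, DESeq2 is the tool that the study used, there in an earlier version. Replicates of different groups carry the same numbers. Their deviations from the group means correlated above 0.1 in every pair between naive HP1a KO and WT cells (r of 0.287 to 0.654) and between HP1g KO and WT Tconv (0.112 to 0.431), and in no other comparison with 3 or more pairs. The pairing there comes from these correlations and not from the labels. Intervals and floors (3 counts) cover counting error only, and reads carry no molecular identifiers.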

Additional observations from a re-analysis of the deposited data

Results flagged for a closer look

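Differences of a response between groups were found for 3 members. The Treg effect on Itga1 differed between HP1a KO and WT by 2.95 on the log2 scale, and between WT cells of the HP1g and HP1a lines (HP1g minus HP1a) by 4.78 for Itga1, 2.25 for Itga2 and −1.18 for Itgav, each by an interaction in edgeR's quasi-likelihood test. Itga1 fell with Treg in HP1a WT by 5.39 and in HP1a KO by 2.45 on the log2 scale, so the direction was shared and the size differed.

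The library left out for its quality, replicate 3 of HP1g KO Tconv with Treg, held signal of 3 members above every library in use. It had 13274 CPM of Itgal, 4931 CPM of Itga4 and 397.5 CPM of Itga6. It also had 119 CPM of Itga1, against 0.911 and 13.6 CPM in the other libraries of its group. The remaining members were at 72.1 CPM of Itgb1, 153 CPM of Itgb7, 318 CPM of Itgb2, 9.04 CPM of Itga2, 45.8 CPM of Itgav and 25.2 CPM of Itgb3. The groups hold 3 libraries or fewer, so that no library was tested for standing apart from its group.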

How the results depend on the processing

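DESeq2 called 4 members in HP1a KO against WT with Treg, where edgeR called 0, and an edgeR fit of all HP1a libraries called 4 and one without a filter on low counts 1. For the Treg effect in HP1a KO, DESeq2, all libraries in 1 fit and no fold threshold each gave 2 in place of 1. DESeq2 gave 3 in place of 1 for the interaction of genotype and Treg in the HP1a line and 5 in place of 3 for that of line and Treg in WT cells. The cause of these shifts was not tested. For DESeq2 the shares of all genes called are given with these comparisons above. For the other settings they are not given, so those counts are not read as a result about the members. With the replicate number as a block the count of members called was 0 in all 6 comparisons of KO with WT, 5, 1, 0 and 0 for the Treg effect in HP1a WT, HP1a KO, HP1g WT and HP1g KO, 7, 6, 8 and 9 for grafted Tconv against naive cells in the same order, 1 and 0 for the interaction of genotype and Treg in the HP1a and HP1g lines, 0 in both lines for that of genotype and grafting and 3 for that of line and Treg. The added call under the block was Itgb1 in HP1a WT. The share of all genes called under the block is given for the Treg effect in HP1a WT alone.

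With 1 library left out the counts were 0 to 0 in the HP1a comparisons of KO with WT and in HP1g naive cells and Tconv, and 0 to 1 in HP1g Tconv with Treg. For the Treg effect they were 2 to 5, 0 to 2, 0 to 0 and 0 to 2, and for grafted against naive cells 7 to 8, 5 to 7, 8 to 8 and 8 to 9. The interactions of genotype and Treg gave 0 to 2 (HP1a) and 0 to 0 (HP1g), those of genotype and grafting 0 to 0, and that of line and Treg 1 to 5. The shares of all genes called in these fits are not given, so a change of count is not read as a change in the members alone.

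Including the excluded library turned the log2 fold change of Itga6 (1.20) and Itgal (2.42) in HP1g KO against WT with Treg, of Itga4 (1.97), Itga6 (1.20) and Itgal (2.25) in the Treg effect of HP1g KO, and of Itga4 (1.73), Itga6 (0.84), Itgal (2.32) and Itga1 (0.50) in the HP1g interaction, none of them called. With 1 library left out, without HP1g KO Tconv with Treg replicate 1 Itga6 (−0.48 to 0.22 over such fits) and Itgal (−0.42 to 0.06) turned against WT, Itgb7 (−1.33 to 0.01) and Itga6 (−0.50 to 0.20) in the Treg effect and Itgb7 (−1.21 to 0.10) in the interaction. Itga4 turned without replicate 1 of naive HP1a WT (−0.08 to 0.09) and without replicate 3 of HP1a WT Tconv with Treg (−0.39 to 0.40 against WT, −0.59 to 0.19 in the interaction), and Itgb3 without replicate 2 of naive HP1g WT (−0.02 to 0.51). None of these values was called. Scaling by library totals put the median difference of mean log2 CPM over all genes at −0.162 in grafted Tconv against naive HP1a WT cells, where TMM put it at −0.028, and within 0.1 of 0 in the other comparisons. With the longest transcript as length the mean ratio of Itgb1 to Itgb7 in HP1a WT Tconv was 0.388 in place of 0.348.

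With 3 libraries a group, and 2 in HP1g KO with Treg, a member that missed the threshold was not shown to be alike between groups. Itga1 and Itga2 were low in some groups, so their folds depend most on counting error.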

Other observations

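Itgae, the αE chain that pairs with β7 and binds E-cadherin, varied widely within groups. It had group means of 0.201 to 0.278 CPM in naive cells and of 83.9 ± 80.7 CPM in HP1a WT, 181 ± 114 CPM in HP1a KO, 87.0 ± 89.9 CPM in HP1g WT and 9.98 ± 12.3 CPM in HP1g KO Tconv (SD, n = 3). Single Tconv libraries ran from 6.96 to 184 CPM of Itgae in HP1g WT and from 25.9 to 176 CPM in HP1a WT. With Treg the Itgae means were 20.9 ± 17.9, 17.4 ± 14.3, 9.91 ± 2.81 and 5.99 ± 2.35 CPM in the same order (n = 2 in HP1g KO), and Itgae was not called in these comparisons.

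Spp1, which encodes osteopontin, and Itgb8, which pairs with αv, were high in the same groups. Spp1 had 288 ± 55.3 CPM in HP1a WT Tconv with Treg, 4.53 ± 3.07 CPM in HP1a KO and 3.46 ± 1.43 CPM in HP1g WT Tconv with Treg, and 119 and 621 CPM in the 2 HP1g KO libraries. Itgb8 had 23.8 ± 4.25, 4.50 ± 3.15 and 1.44 ± 1.93 CPM in the first 3 of these groups and 7.56 and 25.1 CPM in the last. The Treg effect on Spp1 differed between HP1a KO and WT by −4.89 ± 0.64 on the log2 scale (adjusted p 0.0119, edgeR's quasi-likelihood test) and between HP1g and HP1a WT cells by −6.63 ± 0.64 (adjusted p 0.00226). In HP1g KO Tconv without Treg, Spp1 ran from 3.05 to 256 CPM, so the libraries of that group differed widely.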
